A study of Mus musculus with 12 samples.

Results

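Mitosis and cytokinesis genes encode the kinases, cyclins, chromosome proteins, kinetochore parts, motors and contractile proteins with which a cell divides. The group described here holds 40 mouse genes, taken as the rows of the deposited count table that carry their symbols. All 40 were found among 25210 genes, and all 40 were among the 15316 genes with enough counts to test. The samples were mammary organoids, small clumps of mammary epithelium grown in growth-factor-reduced Matrigel in a minimal medium, made from virgin female FVB/N mice 8 to 11 weeks old. For 7 days the medium held the vehicle DMSO or 1, 1.5 or 3 µM of CHIR99021. CHIR99021 blocks the kinase GSK3, so that β-catenin (CTNNB1) accumulates as it does under WNT signalling. There were 3 independent cultures, 1 per mouse, and each was split over the 4 treatments, giving 12 libraries with 3 in each group. The labels name no engineered allele. Replicates 1, 2 and 3 below are these 3 cultures, and sets of 3 values are always in that order.

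A cell enters mitosis when CDK1 bound to a B-type or A-type cyclin becomes active, helped by the Polo and Aurora kinases. Chromosomes then condense and attach to spindle microtubules through the kinetochore, while the checkpoint holds back the anaphase-promoting complex until every chromosome is attached. Once the complex is active, separase cuts the links between sister chromatids and the cell divides by cytokinesis. Most of these transcripts are made late in the cell cycle, so in bulk RNA their level is commonly used as a sign of dividing cells. A bulk library cannot tell more dividing cells from more RNA of these genes in each cell.

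Many genes of this group are known to be controlled through a short promoter element, the cell cycle genes homology region (CHR, TTTGAA or TTCGAA), bound by the MuvB complexes, and through CCAAT boxes bound by NF-Y. The 250 bases before each start were read from the RefSeq promoter table (GRCm38.p6) for the 34 genes it matched. Both motifs were searched on both strands, and matches of the CCAAT motif on opposite strands can overlap. TTTGAA or TTCGAA was found in 13 of 34 genes (38.2%), against 17.1% of all 32851 windows in the table and 12.3% of the 14091 windows of tested genes. CCAAT was found in 26 of 34 genes (76.5%), against 33.8% and 34.3%, and it occurred at least 2 times in 16 of 34 genes, against 10.1% and 11.9%. Both kinds of match stood in 12 of 34 genes, against 6.02% and 4.65%. A match is a run of letters and not a measured binding site. These shares describe the chosen genes and do not depend on the doses. The 6 other genes are Aurkb, Ccna2, Spc24, Incenp, Tpx2 and Kif20a.

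Windows of 7 genes from 4 of the roles below are printed 5′ to 3′ on the gene's strand, with every match of these motifs, in either orientation, in capitals. Cdk1 (chr10:69352913-69353162, minus strand), Ccnb2 (chr9:70421555-70421804, minus) and Cdc20 (chr4:118437344-118437593, minus) each hold both kinds of match. So do Ube2c (chr2:164769679-164769928, plus), Top2a (chr11:99024190-99024439, minus) and Mki67 (chr7:135716380-135716629, minus). Anln (chr9:22389207-22389456, minus) holds neither and is shown for contrast.
Cdk1: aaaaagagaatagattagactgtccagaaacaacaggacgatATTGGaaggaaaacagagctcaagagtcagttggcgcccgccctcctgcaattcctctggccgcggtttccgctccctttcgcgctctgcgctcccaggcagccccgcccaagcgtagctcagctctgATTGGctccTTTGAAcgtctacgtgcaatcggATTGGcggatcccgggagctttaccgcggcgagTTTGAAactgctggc
Ccnb2: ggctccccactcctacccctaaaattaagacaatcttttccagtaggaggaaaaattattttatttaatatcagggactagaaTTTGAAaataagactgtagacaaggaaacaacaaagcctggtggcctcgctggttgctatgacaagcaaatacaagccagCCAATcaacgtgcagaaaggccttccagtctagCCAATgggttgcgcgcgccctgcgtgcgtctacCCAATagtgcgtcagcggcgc
Cdc20: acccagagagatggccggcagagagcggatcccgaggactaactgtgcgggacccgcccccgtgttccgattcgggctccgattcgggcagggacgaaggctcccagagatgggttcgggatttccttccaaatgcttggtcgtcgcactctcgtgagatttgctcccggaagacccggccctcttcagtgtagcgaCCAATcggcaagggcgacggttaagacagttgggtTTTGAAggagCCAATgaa
Ube2c: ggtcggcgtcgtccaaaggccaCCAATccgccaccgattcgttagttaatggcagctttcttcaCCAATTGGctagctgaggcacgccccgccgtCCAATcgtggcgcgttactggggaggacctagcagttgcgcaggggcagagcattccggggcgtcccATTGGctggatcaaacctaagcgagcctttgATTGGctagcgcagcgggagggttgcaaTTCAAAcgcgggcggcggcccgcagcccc
Top2a: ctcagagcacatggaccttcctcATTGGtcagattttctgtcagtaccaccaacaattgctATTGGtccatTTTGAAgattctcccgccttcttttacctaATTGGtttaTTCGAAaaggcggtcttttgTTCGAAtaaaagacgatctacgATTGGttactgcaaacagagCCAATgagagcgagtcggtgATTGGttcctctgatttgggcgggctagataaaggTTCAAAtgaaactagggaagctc
Mki67: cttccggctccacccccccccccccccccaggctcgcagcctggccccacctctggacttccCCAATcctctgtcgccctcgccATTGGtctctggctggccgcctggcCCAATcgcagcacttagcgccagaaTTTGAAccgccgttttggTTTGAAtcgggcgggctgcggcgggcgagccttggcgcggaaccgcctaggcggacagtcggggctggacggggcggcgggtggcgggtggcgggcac
Anln: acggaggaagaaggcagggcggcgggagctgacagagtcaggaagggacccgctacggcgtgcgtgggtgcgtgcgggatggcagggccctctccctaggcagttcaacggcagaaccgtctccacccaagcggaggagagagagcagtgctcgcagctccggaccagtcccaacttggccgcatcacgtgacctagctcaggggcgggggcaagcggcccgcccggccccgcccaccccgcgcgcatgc
In Cdk1 the TTTGAA matches begin 71 and 15 bases before the start. In Cdc20 the match begins 18 bases before it and lies between 2 CCAAT matches. In Top2a there are 2 TTTGAA and 2 TTCGAA matches beside 6 CCAAT matches. Ube2c holds 6 CCAAT matches and 1 TTTGAA match on the minus strand. Whether the matches go with the size of a gene's change was not tested.

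Library totals ran from 10.1 to 24.5 M counts (M, mega). Levels are given as counts per M counts (CPM), with library sizes corrected by the TMM factors of edgeR (trimmed mean of M-values). Epithelial markers were present in every group, with a summed level of 3713 to 6375 CPM over 10 genes with DMSO. Fibroblast markers were present too and differed between cultures, with summed levels over 10 genes of 4105, 9790 and 24499 CPM with DMSO and 232.9, 1155 and 5379 CPM at 3 µM. The 12 markers of squamous differentiation had a summed level of 40.02 to 89.27 CPM with DMSO and of 35679, 32957 and 10169 CPM at 3 µM. Of 10 macrophage and leukocyte markers, 8 had enough counts to test, and their list summed to 285.5, 1421 and 2666 CPM with DMSO and to 41.2, 116.7 and 119.2 CPM at 3 µM. Cd3e and Cd79a, which mark T and B cells, had at most 2 and 6 counts in a library. The 7 endothelial markers summed to 280.7, 586.1 and 477.5 CPM with DMSO and to 32.2, 70.5 and 100.3 CPM at 3 µM. The part of these other cell types in the results on mitosis genes was not tested.

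Added together, the 40 genes took 493.9, 521.3 and 394.3 CPM with DMSO and 457.4, 581.9 and 531.9 CPM at 1 µM. The sum was 1634, 1653 and 1439 CPM at 1.5 µM and 2698, 3632 and 1207 CPM at 3 µM. The groups with DMSO and 1 µM overlap, every library at 1.5 µM lies above them, and the libraries at 3 µM spread around those at 1.5 µM. The median gene stood at 9.13, 9.34 and 6.41 CPM with DMSO and at 49.0, 70.8 and 22.6 CPM at 3 µM.

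**Figure D1:**
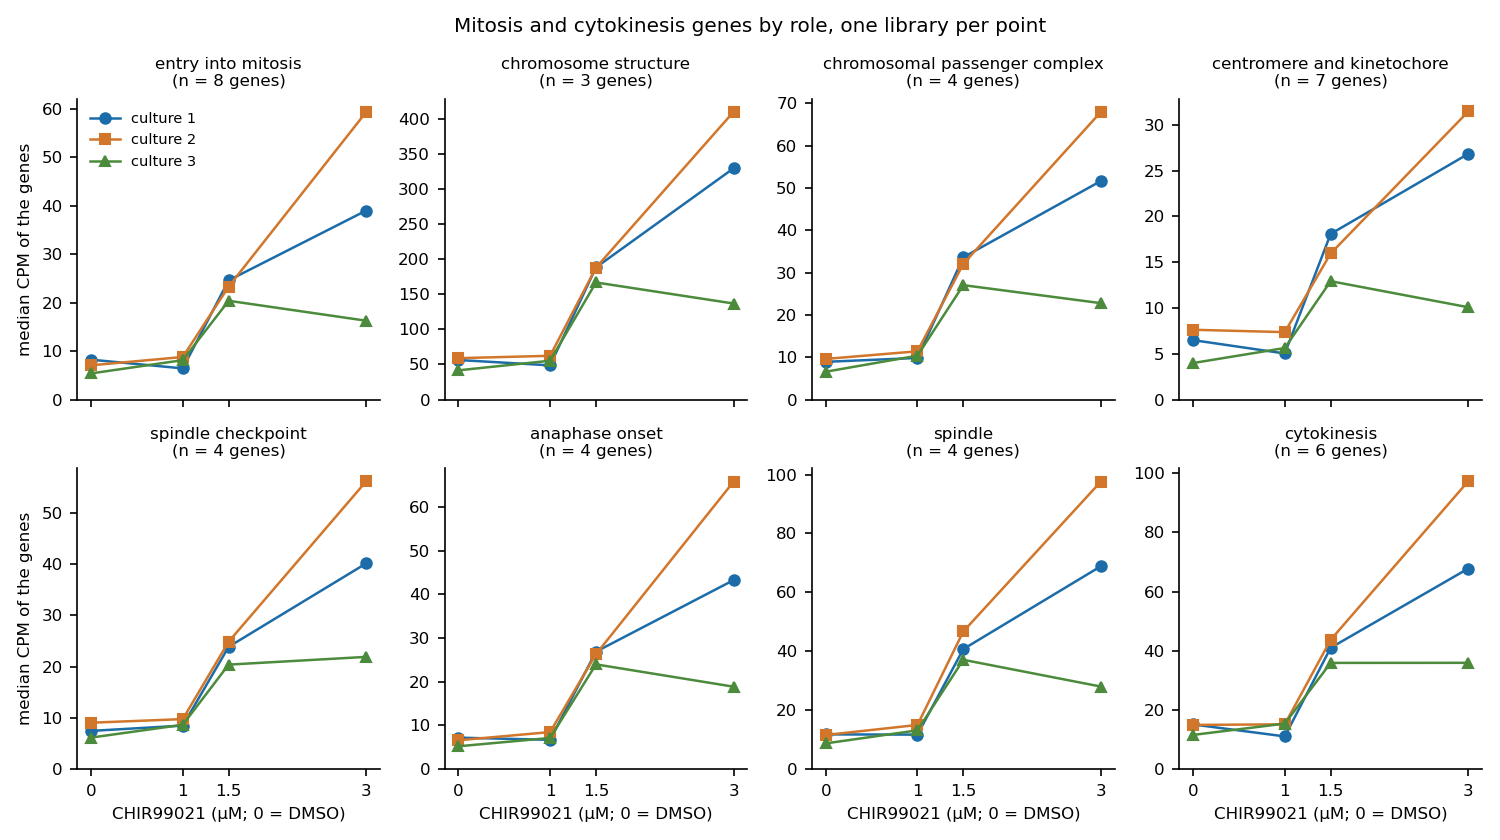
Median level of the genes in each of 8 roles (CPM, linear axis, y) against CHIR99021 dose (µM, x, with DMSO at 0), 1 point per library and 1 line per culture. In all 8 panels each line is higher at 1.5 than at 1 µM, and culture 3 is also higher at 1 µM than with DMSO. From 1.5 to 3 µM cultures 1 and 2 climb further in every panel, while culture 3 is lower in 6 of the 8.

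At 1 µM no gene of the group was called against DMSO by edgeR's quasi-likelihood test with Benjamini-Hochberg adjustment, where 0.189% of all tested genes were called higher. None had an unadjusted p under 0.05. DESeq2 also called 0 of the 40, where it called 2.19% of all genes higher, and with the animal as a block 0 of the 40 were called, against 2.55% of all genes. The fitted fold changes ran from 0.947 to 1.43 with a median of 1.13. They were above 1 in 36 of 40, against 7551 of all 15316 genes. The median log2 change of the 40 was 0.17 with all libraries. It was 0.21, 0.24 and 0.008 without DMSO replicates 1, 2 and 3, so its size depended on DMSO replicate 3. In 2 genes, Birc5 and Kif11, all libraries at 1 µM lay above all with DMSO, against 11.2% of all genes. Within cultures, 12 of 40 genes were higher at 1 µM in culture 1, 33 in culture 2 and 39 in culture 3, against 47.6%, 49.3% and 50.5% of all genes.

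At 1.5 µM, 39 of 40 genes were called higher than with DMSO and 0 lower, against 15.4% of all genes called higher. The median change was 3.38-fold, with a range of 2.13 to 4.43-fold. The exception was Spc25, a subunit of the NDC80 kinetochore complex (adjusted p = 0.0574, 0.00608 with the animal as a block). For all 40 genes the 3 libraries at 1.5 µM lay above the 3 with DMSO, which held for 24.9% of all genes. With culture 1 left out, so that 2 libraries remained in each group, 2 genes were called, and with culture 2 left out 6 were. Without culture 3 there were 40, and the median log2 change in these 3 fits was 1.80, 1.76 and 1.72. Of all genes, 859, 337 and 2447 were called higher in these fits, against 2364 with all libraries.

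At 3 µM all 40 genes were called higher, against 29.9% of all genes. The median change was 5.36-fold, from 3.14-fold in Spc25 to 9.08-fold in Ube2c, and adjusted p ran from 3.19e-05 to 0.00439. Again no library with DMSO reached the lowest one at 3 µM for any of the 40, against 30.9% of all genes. This comparison shares its DMSO libraries with the previous one. Fitted over dose, all 40 genes were called with a slope above 0, against 30.2% of all genes called so. The median slope of the 40 was 0.86 log2 units per µM. A straight line is only a summary, since the rise was uneven over dose. The median log2 change was 0.17 from DMSO to 1 µM, 1.60 from 1 to 1.5 µM and 0.69 from 1.5 to 3 µM.

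**Figure D2:**
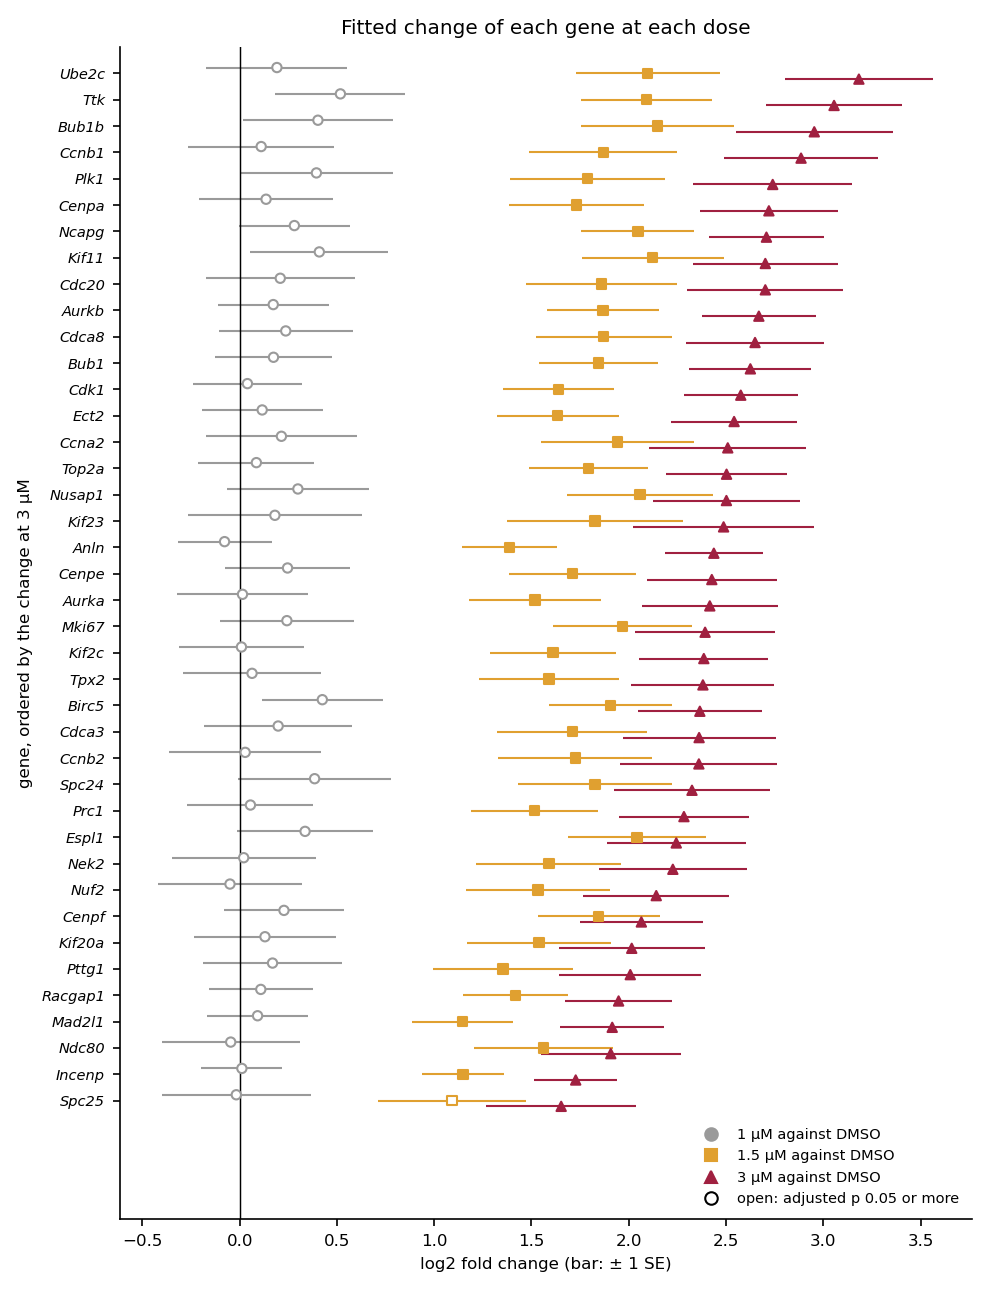
Fitted log2 fold change against DMSO (x, bars ± 1 SE) of each of the 40 genes (y, ordered by the change at 3 µM) at 1, 1.5 and 3 µM, with open symbols for an adjusted p of 0.05 or more. The 1 µM values lie around 0 and are all open, Spc25 is the open symbol at 1.5 µM, and Ube2c and Ttk have the largest values at 3 µM.

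The 8 genes of entry into mitosis rose 3.29-fold (median) at 1.5 µM and 5.51-fold at 3 µM, all of them called at both doses. Cdk1 (chr10:69336635-69352938), the kinase that drives mitosis, stood at 16.9, 16.3 and 13.9 CPM with DMSO, 14.0, 17.5 and 16.9 at 1 µM, 55.3, 47.1 and 44.4 at 1.5 µM and 104, 128 and 49.7 at 3 µM. The DMSO and 1 µM libraries lie between 13.9 and 17.5 CPM and the lowest library at higher doses is at 44.4 CPM. Its log2 change was 1.64 (SE 0.28, adjusted p = 0.00282) at 1.5 µM and 2.58 (SE 0.29, adjusted p = 5.83e-05) at 3 µM. Ccnb1 (chr13:100778650-100786570), the cyclin B that activates it, stood at 9.42, 9.34 and 7.49 CPM with DMSO, 9.24, 9.75 and 9.32 at 1 µM, 32.5, 34.3 and 29.0 at 1.5 µM and 73.8, 95.5 and 24.6 at 3 µM. Replicate 3 at 3 µM is below all libraries at 1.5 µM, while replicates 1 and 2 at 3 µM are at 73.8 and 95.5 CPM. The log2 change of Ccnb1 was 1.87 (SE 0.38, adjusted p = 0.00620) at 1.5 µM and 2.89 (SE 0.39, adjusted p = 0.000185) at 3 µM.

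Ccnb2 (chr9:70407689-70421554), the second B-type cyclin, gave 8.66, 7.11 and 5.33 CPM with DMSO, 6.04, 8.67 and 6.82 at 1 µM, 25.6, 23.4 and 20.9 at 1.5 µM and 37.9, 55.7 and 15.0 at 3 µM. As for Ccnb1, replicate 3 at 3 µM lies below all libraries at 1.5 µM, and the log2 changes were 1.73 (SE 0.40, adjusted p = 0.0104) at 1.5 µM and 2.36 (SE 0.40, adjusted p = 0.000726) at 3 µM. Plk1 (chr7:122159437-122169875), the Polo kinase of centrosome maturation and mitotic entry, stood at 6.18, 6.80 and 4.90 CPM with DMSO, 6.04, 8.87 and 8.52 at 1 µM, 19.6, 23.2 and 18.7 at 1.5 µM and 39.9, 62.9 and 16.4 at 3 µM. The DMSO and 1 µM libraries overlap, and the spread at 3 µM is the widest of its groups. Its log2 change was 1.79 (SE 0.40, adjusted p = 0.00911) at 1.5 µM and 2.74 (SE 0.41, adjusted p = 0.000323) at 3 µM. Aurka (chr2:172356190-172370535), the Aurora kinase of the spindle poles, stood at 6.18, 6.80 and 5.44 CPM with DMSO, 4.67, 7.02 and 6.87 at 1 µM, 17.4, 17.9 and 17.4 at 1.5 µM and 31.5, 50.5 and 16.1 at 3 µM. Its libraries at 1.5 µM lie within 1 CPM of each other, and those at 3 µM fall on both sides of them. The log2 change of Aurka was 1.52 (SE 0.34, adjusted p = 0.00938) at 1.5 µM and 2.42 (SE 0.35, adjusted p = 0.000255) at 3 µM. The other 3 genes of this role were Ccna2, which encodes cyclin A2, Nek2, a kinase that separates centrosomes, and Cdca3, and at 3 µM they changed 5.69, 4.68 and 5.14-fold.

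All 3 genes of chromosome structure rose at both doses, by a median of 3.91-fold and 5.67-fold. Mki67 (chr7:135689788-135716379) encodes Ki-67, the coat protein of mitotic chromosomes that is widely used to mark dividing cells. It stood at 59.5, 71.2 and 54.0 CPM with DMSO, 58.3, 83.9 and 76.2 at 1 µM, 246, 245 and 231 at 1.5 µM and 377, 455 and 137 at 3 µM. At 1.5 µM its 3 libraries are close together, and at 3 µM replicate 3 is lower than each of these. The log2 change was 1.97 (SE 0.36, adjusted p = 0.00346) at 1.5 µM and 2.39 (SE 0.36, adjusted p = 0.000346) at 3 µM. Top2a (chr11:98992943-99024189), the topoisomerase that untangles sister chromatids, stood at 56.3, 58.9 and 41.6 CPM with DMSO, 48.7, 62.3 and 55.3 at 1 µM, 188, 188 and 167 at 1.5 µM and 329, 410 and 149 at 3 µM. At 3 µM its libraries stand in the same order as those of Mki67, with replicate 3 below each library at 1.5 µM. The log2 change of Top2a was 1.79 (SE 0.31, adjusted p = 0.00263) at 1.5 µM and 2.503 (SE 0.31, adjusted p = 0.000106) at 3 µM. Ncapg (chr5:45669922-45700544), a subunit of condensin I, stood at 5.29, 4.57 and 5.17 CPM with DMSO, 4.98, 6.92 and 6.42 at 1 µM, 20.7, 21.4 and 20.3 at 1.5 µM and 33.2, 47.2 and 18.2 at 3 µM. Its DMSO libraries differ by less than 1 CPM, and its log2 change was 2.05 (SE 0.29, adjusted p = 0.00109) at 1.5 µM and 2.71 (SE 0.30, adjusted p = 4.38e-05) at 3 µM.

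The chromosomal passenger complex corrects wrong attachments and later marks the midzone of the dividing cell. All 4 of its genes rose, with a median of 3.65-fold at 1.5 µM and 5.69-fold at 3 µM. Aurkb (chr11:69045647-69051664), its kinase, stood at 5.73, 6.499 and 4.79 CPM with DMSO, 5.84, 6.58 and 6.70 at 1 µM, 21.8, 21.9 and 18.3 at 1.5 µM and 37.4, 50.8 and 19.8 at 3 µM. The libraries at 1.5 µM lie between 18.3 and 21.9 CPM, and replicate 3 at 3 µM falls in that range. The log2 change was 1.87 (SE 0.29, adjusted p = 0.00156) at 1.5 µM and 2.67 (SE 0.29, adjusted p = 4.68e-05) at 3 µM. Birc5 (chr11:117849251-117855743), which encodes survivin, stood at 9.06, 9.85 and 7.16 CPM with DMSO, 10.7, 12.3 and 11.9 at 1 µM, 34.8, 34.0 and 28.8 at 1.5 µM and 47.1, 64.7 and 22.3 at 3 µM. Here replicate 3 at 3 µM is below all of the 1.5 µM libraries, and the log2 change was 1.91 (SE 0.32, adjusted p = 0.00228) at 1.5 µM and 2.37 (SE 0.32, adjusted p = 0.000170) at 3 µM. Incenp (chr19:9872297-9899533), the scaffold of the complex, stood at 21.6, 22.3 and 20.1 CPM with DMSO, 19.4, 23.7 and 21.3 at 1 µM, 48.8, 48.8 and 44.3 at 1.5 µM and 79.6, 88.0 and 44.3 at 3 µM. It had the second smallest change of the 40 genes at 3 µM, with log2 values of 1.15 (SE 0.21, adjusted p = 0.00356) at 1.5 µM and 1.73 (SE 0.21, adjusted p = 9.29e-05) at 3 µM. Cdca8, which encodes borealin, changed 6.27-fold at 3 µM.

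Of the 7 centromere and kinetochore genes, 6 were called at 1.5 µM and 7 at 3 µM, with medians of 3.27-fold and 4.41-fold. Cenpa (chr5:30666777-30674827), the histone H3 variant that marks centromeres, stood at 8.09, 8.63 and 5.55 CPM with DMSO, 7.87, 7.99 and 8.52 at 1 µM, 26.3, 27.1 and 20.3 at 1.5 µM and 52.9, 70.5 and 23.0 at 3 µM. Its log2 change was 1.73 (SE 0.35, adjusted p = 0.00557) at 1.5 µM and 2.72 (SE 0.36, adjusted p = 0.000142) at 3 µM, and the libraries at 3 µM overlap those at 1.5 µM through replicate 3. Ndc80 (chr17:71496100-71526857), the subunit that binds microtubules, stood at 5.02, 5.59 and 3.99 CPM with DMSO, 3.50, 5.75 and 4.83 at 1 µM, 14.1, 15.9 and 12.9 at 1.5 µM and 18.1, 27.6 and 8.90 at 3 µM. Replicate 3 at 3 µM is lower than every 1.5 µM library but higher than every DMSO and 1 µM library. The log2 change was 1.56 (SE 0.36, adjusted p = 0.0101) at 1.5 µM and 1.91 (SE 0.36, adjusted p = 0.00129) at 3 µM. Spc25 (chr2:69193895-69206194), of the same complex, stood at 6.49, 7.62 and 3.61 CPM with DMSO, 4.42, 7.36 and 5.62 at 1 µM, 12.2, 14.8 and 10.5 at 1.5 µM and 20.3, 25.7 and 9.45 at 3 µM. It had the smallest change of the 40 at 3 µM, and its DMSO libraries differ by more than 2-fold. The log2 change of Spc25 was 1.09 (SE 0.38, adjusted p = 0.0574) at 1.5 µM and 1.65 (SE 0.39, adjusted p = 0.00439) at 3 µM. Nuf2 and Spc24, also of the NDC80 complex, changed 4.41 and 5.01-fold at 3 µM. Cenpe, a kinetochore motor, and Cenpf, a large kinetochore protein, changed 5.38 and 4.18-fold.

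All 4 spindle checkpoint genes rose, with medians of 3.91-fold and 6.91-fold. Bub1 (chr2:127801122-127831865), a kinase of the checkpoint at the kinetochore, stood at 5.33, 7.62 and 5.39 CPM with DMSO, 6.85, 6.87 and 6.82 at 1 µM, 21.2, 24.2 and 20.1 at 1.5 µM and 38.0, 54.5 and 20.01 at 3 µM. Its 1 µM libraries are nearly equal and lie inside the DMSO range, and the log2 change was 1.85 (SE 0.31, adjusted p = 0.00228) at 1.5 µM and 2.63 (SE 0.31, adjusted p = 7.77e-05) at 3 µM. Ttk (chr9:83834689-83872389), also called MPS1, the kinase that starts the checkpoint, stood at 3.51, 3.96 and 2.26 CPM with DMSO, 3.86, 5.21 and 4.77 at 1 µM, 13.1, 14.8 and 13.4 at 1.5 µM and 25.8, 39.9 and 14.8 at 3 µM. It had the second largest change of the group at 3 µM. All of its 3 µM libraries are above all at 1.5 µM, for replicate 3 by less than the rounding shows, and the log2 change was 2.09 (SE 0.34, adjusted p = 0.00201) at 1.5 µM and 3.06 (SE 0.35, adjusted p = 5.74e-05) at 3 µM. Mad2l1 (chr6:66535390-66541033) encodes MAD2, which holds CDC20 inactive, and stood at 11.3, 10.5 and 11.0 CPM with DMSO, 11.9, 12.6 and 10.5 at 1 µM, 26.5, 25.5 and 20.6 at 1.5 µM and 42.3, 57.8 and 23.7 at 3 µM. Its change was below the median of the group, at 1.15 (SE 0.26, adjusted p = 0.0100) at 1.5 µM and 1.92 (SE 0.27, adjusted p = 0.000196) at 3 µM. Bub1b, which encodes the checkpoint protein BUBR1, changed 7.75-fold at 3 µM and had the largest change of the 40 at 1.5 µM, 4.43-fold.

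The 4 genes of anaphase onset rose by a median of 3.87-fold and 5.55-fold. Cdc20 (chr4:118432901-118437352), the activator of the anaphase-promoting complex, stood at 10.7, 11.4 and 7.92 CPM with DMSO, 11.4, 12.2 and 11.0 at 1 µM, 37.5, 38.7 and 32.3 at 1.5 µM and 74.3, 95.6 and 24.6 at 3 µM. Replicate 3 at 3 µM is below all libraries at 1.5 µM, and the log2 change was 1.86 (SE 0.39, adjusted p = 0.00700) at 1.5 µM and 2.70 (SE 0.40, adjusted p = 0.000309) at 3 µM. Ube2c (chr2:164769898-164778822), the ubiquitin-conjugating enzyme that works with the complex, stood at 7.60, 6.70 and 4.90 CPM with DMSO, 7.16, 8.33 and 6.42 at 1 µM, 29.5, 27.9 and 24.8 at 1.5 µM and 60.1, 88.3 and 26.1 at 3 µM. It had the largest change of the 40 genes, with log2 values of 2.098 (SE 0.37, adjusted p = 0.00301) at 1.5 µM and 3.18 (SE 0.38, adjusted p = 8.39e-05) at 3 µM. In the annotation, 22.8% of its exon bases overlap Tnnc2 on the opposite strand. Whether counting used the strand is not given in the sources used here.

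Pttg1 (chr11:43420250-43426251), which encodes securin, the inhibitor of separase, stood at 6.80, 5.48 and 3.23 CPM with DMSO, 6.25, 6.53 and 4.66 at 1 µM, 16.0, 13.8 and 9.91 at 1.5 µM and 23.2, 27.6 and 11.7 at 3 µM. Replicate 3 was the lowest library of Pttg1 in every group, and the log2 change was 1.35 (SE 0.36, adjusted p = 0.0193) at 1.5 µM and 2.01 (SE 0.36, adjusted p = 0.00102) at 3 µM. Espl1 (chr15:102296293-102324356), which encodes separase itself, stood at 5.51, 6.499 and 5.55 CPM with DMSO, 5.64, 8.62 and 7.84 at 1 µM, 24.3, 24.7 and 23.2 at 1.5 µM and 26.4, 43.4 and 13.2 at 3 µM. Its 1.5 µM libraries are within 2 CPM of each other, and replicate 3 at 3 µM is far below them. The log2 change of Espl1 was 2.04 (SE 0.36, adjusted p = 0.00286) at 1.5 µM and 2.24 (SE 0.36, adjusted p = 0.000469) at 3 µM.

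The 4 spindle genes rose by a median of 3.57-fold and 5.44-fold. Kif11 (chr19:37376403-37421859), the motor that pushes spindle poles apart, stood at 14.4, 14.5 and 10.6 CPM with DMSO, 16.8, 19.0 and 16.6 at 1 µM, 59.3, 61.3 and 51.2 at 1.5 µM and 93.5, 127 and 36.0 at 3 µM. Its 1 µM libraries all lie above those with DMSO, yet it was not called at 1 µM (log2 change 0.41, SE 0.36, adjusted p = 0.728). At the higher doses the log2 change was 2.12 (SE 0.36, adjusted p = 0.00274) at 1.5 µM and 2.70 (SE 0.37, adjusted p = 0.000194) at 3 µM. Tpx2, which activates Aurora A on the spindle, changed 5.21-fold at 3 µM. Nusap1, a microtubule-bundling protein, and Kif2c, a kinesin that shortens microtubules, changed 5.67 and 5.23-fold. The 6 cytokinesis genes rose by a median of 2.88-fold and 5.14-fold. Kif20a, a motor of the spindle midzone, stood at 11.3, 11.5 and 6.84 CPM with DMSO, 9.49, 11.8 and 11.1 at 1 µM, 27.4, 32.5 and 25.96 at 1.5 µM and 42.2, 59.6 and 17.9 at 3 µM. The log2 change was 1.54 (SE 0.37, adjusted p = 0.0130) at 1.5 µM and 2.02 (SE 0.37, adjusted p = 0.00121) at 3 µM, and 29.3% of its exon bases overlap Cdc23 on the opposite strand. Anln (chr9:22331214-22389206), anillin, which organises the contractile ring, stood at 21.4, 19.9 and 15.6 CPM with DMSO, 17.2, 18.4 and 18.4 at 1 µM, 48.9, 52.1 and 47.7 at 1.5 µM and 105, 141 and 62.2 at 3 µM. No library at 1.5 µM reaches the lowest at 3 µM, and the log2 change was 1.39 (SE 0.24, adjusted p = 0.00296) at 1.5 µM and 2.44 (SE 0.25, adjusted p = 3.19e-05) at 3 µM. Prc1, which bundles midzone microtubules, changed 4.87-fold at 3 µM. Kif23 and Racgap1, the partners of the centralspindlin complex, changed 5.61 and 3.86-fold, and Ect2, the exchange factor that it recruits, 5.82-fold.

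**Figure D3:**
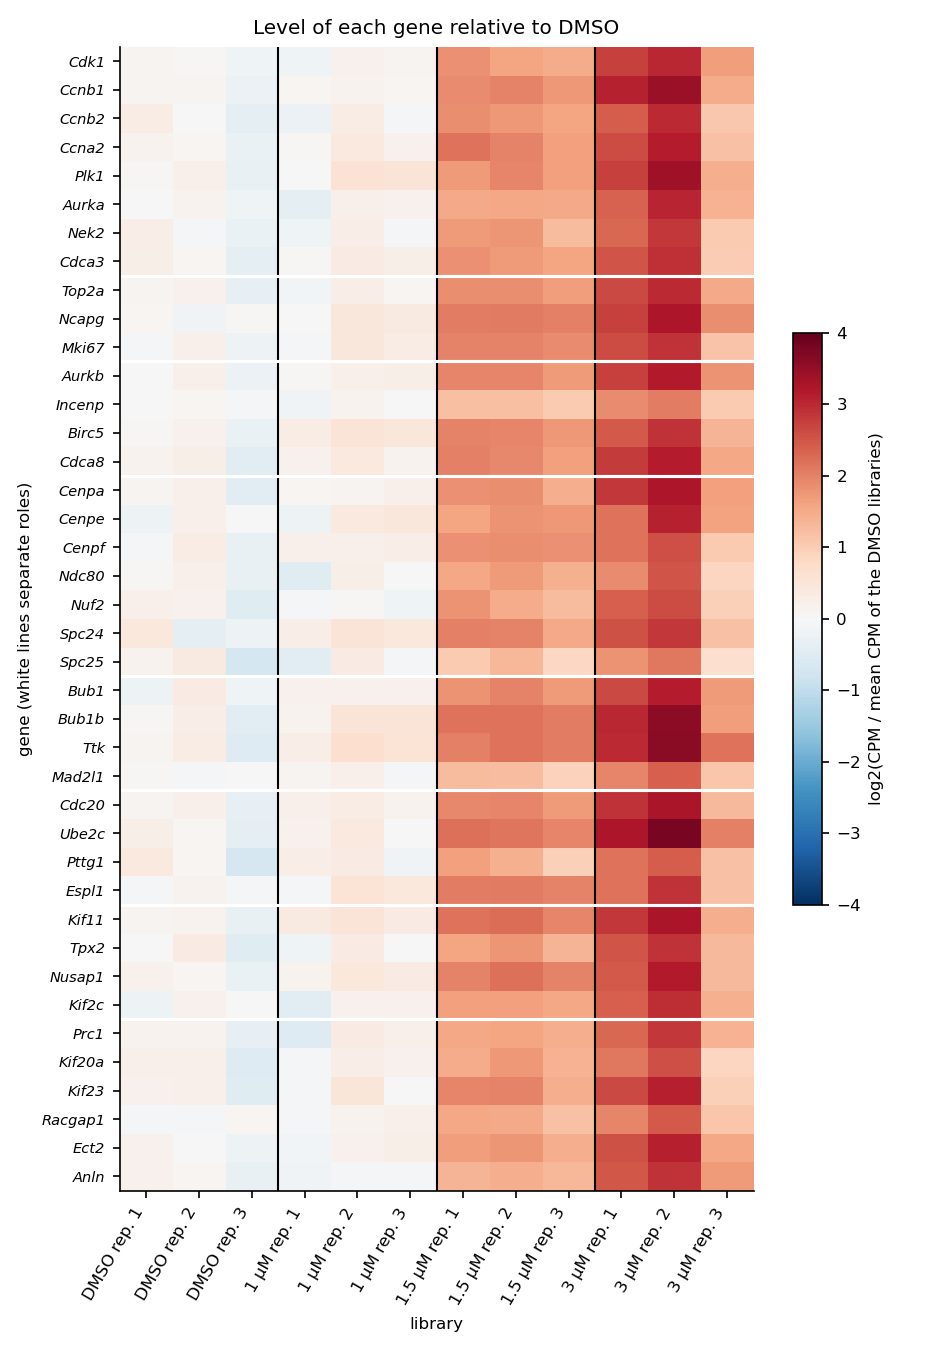
Level of each of the 40 genes (y, white lines between roles) in each of the 12 libraries (x, black lines between groups), as log2 of CPM over the mean CPM of the DMSO libraries. The DMSO and 1 µM columns are pale, the 1.5 µM columns are alike, and the third 3 µM column is paler than the other two for all 40 genes.

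Levels of different genes were set side by side per kilobase of annotated exon, counting every exonic base of a gene in GENCODE M21 once. That length can exceed the length of the transcripts present, so the order of the genes is approximate. On this scale the highest mean levels with DMSO were 6.12 CPM for Mki67, 5.80 for Top2a and 5.35 for Cdc20, and the lowest were 0.660 for Ttk and 0.669 for Espl1. At 3 µM the highest were 34.7 CPM per kilobase for Cdc20, 32.8 for Top2a and 32.1 for Mki67, and the lowest were 2.80 for Ndc80 and 3.16 for Espl1. The order was thus led by the same 3 genes at both ends of the dose range. Ube2c moved from place 13 with DMSO to place 5 at 3 µM, and Incenp from place 4 to place 11.

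Between 1 and 1.5 µM, 34 of 40 genes were called higher, against 4.43% of all genes, with a median of 3.03-fold. The other 6 were Plk1, Spc24, Spc25, Pttg1, Kif20a and Kif23. For all 40 the libraries at 1.5 µM lay above those at 1 µM (19.3% of all genes), and all 40 were higher in each of the 3 cultures. With the animal as a block 40 were called, where 11.3% of all genes were. The count depended on single libraries, and so did that of all genes, which was 679 with every library. Without 1 µM replicates 1, 2 and 3 the count of the 40 was 1, 1 and 3, against 170, 122 and 198 of all genes. Without 1.5 µM replicates 1, 2 and 3 it was 3, 4 and 18, against 156, 206 and 424. Without 3 µM replicate 1 it was 22, against 453. With culture 1 or culture 2 left out it was 0, and 0 of all genes were called higher. The median log2 change of the 40 was then 1.44 and 1.61 against 1.60 with all libraries.

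Between 1.5 and 3 µM, 7 of 40 genes were called higher in the fit without a block, a share near the 17.0% of all genes. They were Cdk1, Ect2, Anln, Cenpa, Mad2l1, Ttk and Ube2c. The median change was 1.61-fold, and 21 genes had an unadjusted p under 0.05, where 23.3% of all genes were higher at that level. In 2 genes, Ttk and Anln, the groups did not overlap, against 23.1% of all genes. Anln had the smallest adjusted p of the 40 (0.00960), with a log2 change of 1.05 (SE 0.24). Mki67, by contrast, had a log2 change of 0.42 (SE 0.34, adjusted p = 0.374), and Espl1 one of 0.20 (SE 0.34, adjusted p = 0.676). The share depended on the fit: with the animal as a block 15 of 40 were called higher, against 24.7% of all genes. DESeq2 called 13 of 40, and 3061 of all 15316 genes.

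The 3 cultures moved differently at this last step. In culture 1 all 40 genes were higher at 3 than at 1.5 µM, with a median of 1.62-fold, and in culture 2 all 40 were, with a median of 2.23-fold. In culture 3, 10 were higher and 30 lower, with a median log2 difference of -0.16. Among all genes, 50.0%, 50.9% and 48.1% were higher in the 3 cultures. In culture 3 the difference ran from -0.81 for Espl1 to 0.38 for Anln. With scaling to library size alone, 39, 40 and 3 genes were higher in cultures 1, 2 and 3, but there the median log2 difference of all genes was itself -0.29, -0.31 and -0.21. The median of the 40 in culture 3 was then -0.34. Each culture has 1 library per dose, so the difference at this step was not tested. A test for a difference between cultures in the slope over all doses called 0 genes of the group (edgeR's quasi-likelihood test). It called 0.00% of all genes too, so its result for the group does not show that the cultures were alike. The test compares straight lines over all doses and does not address the last step alone. The fitted slope was lowest in culture 3 for all 40 genes. In the test for a difference in slope, unadjusted p ran from 0.173 to 0.856 in the group. There 0 genes of the group were under 0.05, against 8.03% of all genes.

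**Figure D4:**
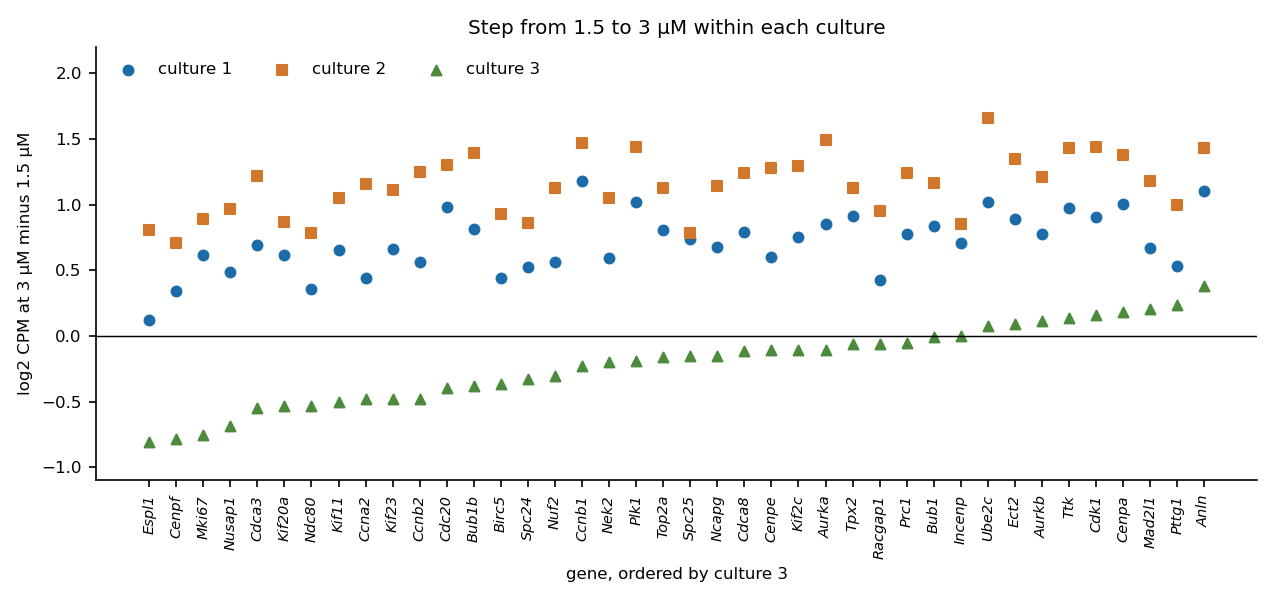
Difference in log2 CPM between 3 and 1.5 µM within each culture (y) for each of the 40 genes (x, ordered by culture 3), 1 symbol per gene and culture. Every point of cultures 1 and 2 is above 0, while 30 points of culture 3 are below it.

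Replicate 3 was the lowest of the 3 µM libraries for all 40 genes, against 42.8% of all genes, and replicate 2 was the highest for all 40, against 35.2%. Even so, 3 µM replicate 3 was above every DMSO and every 1 µM library for all 40 genes, against 35.7% of all genes. Against its own DMSO library, the median difference at 3 µM was 5.21-fold in culture 1, 7.23-fold in culture 2 and 3.06-fold in culture 3. With DMSO too, replicate 3 was the lowest for 32 of 40 genes, against 33.1% of all genes. The same 3 µM library had the highest fibroblast sum of its group (5379 CPM against 232.9 and 1155 CPM) and the lowest epithelial sum (17594 CPM against 31253 and 34368 CPM). Of the 10 epithelial markers, 5 were called higher and 2 lower than with DMSO at 3 µM, against 29.9% and 27.7% of all genes. Their sum thus includes genes that change with dose, and whether it follows the share of epithelial cells was not tested. The squamous sum of the same library was the lowest as well, at 10169 CPM. Without this library, 37 genes of the group were called higher at 3 than at 1.5 µM, with a median log2 change of 1.04. Of all 15316 genes, 3296 were called higher in that fit.

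Leaving out other libraries lowered the count for this last step. It was 1 without any one of the other 3 µM libraries or any 1.5 µM library, where 1759 to 1984 of all genes were called higher. It was 2 without any 1 µM library, where 2270 to 2456 of all genes were. Without DMSO replicates 1, 2 and 3 it was 3, 2 and 5, where 2523, 2488 and 2556 of all genes were called higher. With all libraries 2601 of all genes were. With the animal as a block 15 genes were called, where 24.7% of all genes were. With culture 1 or culture 2 left out entirely 0 of the 40 were called higher, where 609 and 204 of all genes were. With culture 3 left out 35 were, where 2902 of all genes were. With scaling to library size alone 1 gene was called, and the median log2 change of the 40 was 0.39, where that of all genes was -0.28.

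Genes that act beside this group were counted in lists of related genes. Of all genes tested, 15.4% rose and 11.8% fell at 1.5 µM, and 29.9% rose and 27.7% fell at 3 µM. Of 12 other genes of mitotic entry, 11 rose at 1.5 µM and 12 at 3 µM. Melk, a kinase of proliferating cells, and Cdc25c, a phosphatase that activates CDK1, had the largest log2 changes at 3 µM, with 3.00 (SE 0.32, adjusted p = 3.73e-05) and 2.96 (SE 0.38, adjusted p = 0.000128). Pkmyt1, a kinase that holds CDK1 inactive, had the smallest, with 0.67 (SE 0.25, adjusted p = 0.0435), followed by Cks1b with 0.86 (SE 0.12, adjusted p = 0.000236). Of 32 other kinetochore and checkpoint genes, 22 and 28 rose. Sgol1, the shugoshin that protects centromeric cohesion, had 2.82 (SE 0.33, adjusted p = 7.12e-05) and Cenpi 2.64 (SE 0.28, adjusted p = 3.46e-05). Dsn1 and Ska2 were not called, with -0.09 (SE 0.18, adjusted p = 0.689) and -0.08 (SE 0.24, adjusted p = 0.790).

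Of 29 other spindle and cytokinesis genes, 25 rose at 1.5 µM and 27 at 3 µM, and 1 fell at 3 µM. Stil, needed for centriole duplication, had the largest log2 change at 3 µM, with 3.05 (SE 0.25, adjusted p = 8.05e-06). The gene that fell was Numa1, which anchors spindle poles and is also a nuclear protein between divisions, with -0.37 (SE 0.08, adjusted p = 0.00268). Of 18 other condensin and cohesin genes, 12 and 14 rose. Cdca5, which encodes sororin, had 2.66 (SE 0.30, adjusted p = 5.31e-05), while Nipbl, the cohesin loader, was not called, with -0.16 (SE 0.09, adjusted p = 0.137).

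Of 16 other genes of the anaphase-promoting complex, 2 rose at 1.5 µM, and 4 rose and 1 fell at 3 µM, shares near the 15.4% and 29.9% of all genes. Fbxo5, which encodes the inhibitor EMI1, had a log2 change of 1.60 at 3 µM (SE 0.34, adjusted p = 0.00241). Ube2s, the enzyme that extends its ubiquitin chains, had 1.22 (SE 0.20, adjusted p = 0.000479). The core subunit Anapc4 fell by 0.33 on the log2 scale (SE 0.10, adjusted p = 0.0194), and Anapc15 was not called (-0.40, SE 0.23, adjusted p = 0.154). The partners of the complex within the group of 40, Cdc20 and Ube2c, changed by 6.51 and 9.08-fold.

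Among 14 regulators of mitotic gene transcription, 8 rose and 1 fell at 1.5 µM, where 15.4% of all genes rose and 11.8% fell. At 3 µM 11 rose and 1 fell, where 29.9% of all genes rose and 27.7% fell. Foxm1, a transcription factor of G2 and M phase genes, had a mean of 11.1 ± 2.33 CPM in the vehicle group and 11.2 ± 1.27 CPM at 1 µM (SD, n = 3). At the higher doses the means were 28.1 ± 4.76 and 36.0 ± 19.0 CPM (SD, n = 3). The log2 change of Foxm1 was 1.35 (SE 0.37, adjusted p = 0.0219) at 1.5 µM and 1.70 (SE 0.37, adjusted p = 0.00300) at 3 µM by edgeR's quasi-likelihood test. Mybl2, which encodes B-MYB, a partner of MuvB, went from 5.30 ± 1.67 CPM with DMSO to 20.1 ± 4.05 and 36.7 ± 16.0 CPM at the upper doses (SD, n = 3). The log2 change of Mybl2 was 1.92 (SE 0.35, adjusted p = 0.00351) and 2.78 (SE 0.36, adjusted p = 0.000124) by the same edgeR test. Rbl2, which encodes p130, a repressor in resting cells, went the other way, from 59.4 ± 6.11 CPM with DMSO to 46.0 ± 5.03 and 31.1 ± 1.54 (SD, n = 3). It fell by 0.37 at 1.5 µM (SE 0.10, adjusted p = 0.0211) and by 0.93 at 3 µM (SE 0.10, adjusted p = 4.19e-05) on the log2 scale in the edgeR fit.

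DNA replication precedes mitosis, and its genes give another view of the cell cycle. Of 40 replication genes, 34 rose at 1.5 µM and 37 at 3 µM, with median log2 changes of 1.18 and 1.85, against 1.76 and 2.42 for the 40 mitosis genes. The test of that difference was not run. At 1 µM 0 were called. Rrm2, a subunit of ribonucleotide reductase, had the largest change at 3 µM (3.32, SE 0.42, adjusted p = 0.000109), followed by Uhrf1 (2.74, SE 0.27, adjusted p = 2.62e-05), while Gins4 and Pold3 were not called (0.12 and 0.19, adjusted p = 0.379 and 0.339). From 1.5 to 3 µM, 39, 40 and 22 of the 40 replication genes were higher in cultures 1, 2 and 3, with median log2 differences of 0.60, 0.92 and 0.08. Replicate 3 was the lowest 3 µM library for 39 of them.

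**Figure D5:**
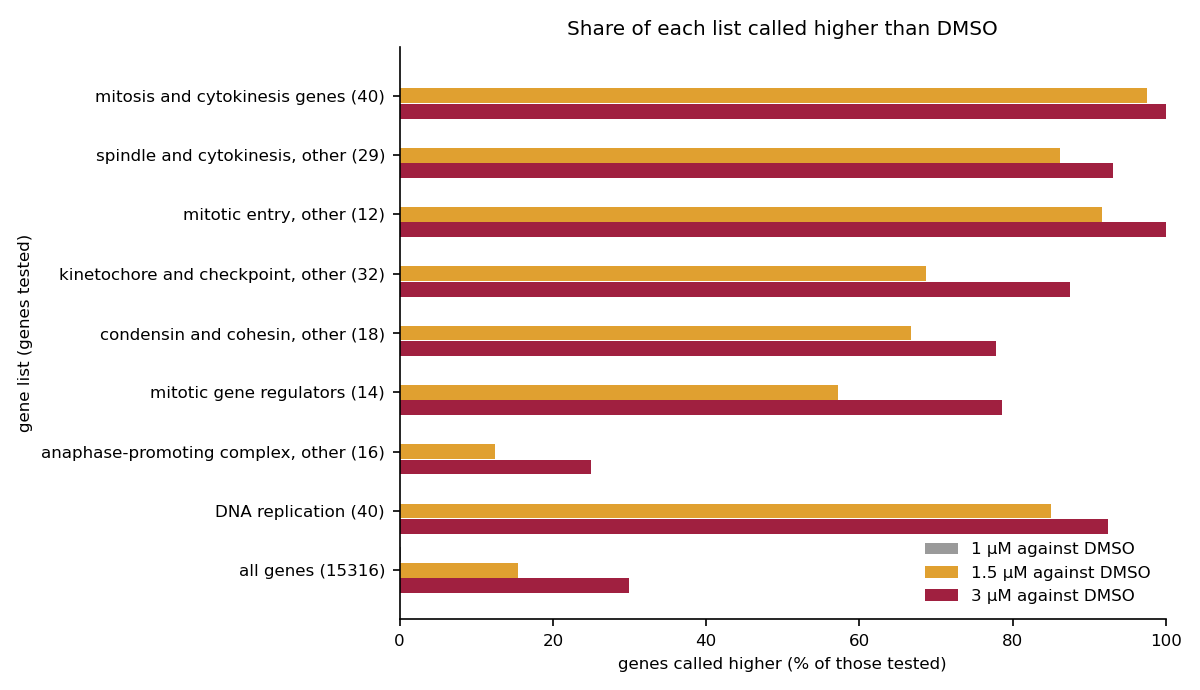
Share of the tested genes called higher than with DMSO (%, x, axis from 0) in the group of 40, in 7 other cell cycle lists and among all 15316 genes (y), by dose. The bars for 1 µM are at 0 in each list and at 0.189% for all genes, and the bars of the anaphase-promoting complex list, 2 and 4 of 16 genes at 1.5 and 3 µM, lie near those of all genes.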

How the data were processed

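Per the labels' protocols, libraries were stranded TruSeq preparations of polyA RNA, read on an Illumina HiSeq. The authors deposited whole-number read counts per gene and a log2 table, which was not used. The submitters' processing notes name TopHat2 2.1, Bowtie 1.1.0, HTSeq, DESeq2 and the build GRCm38 (mm10), without roles. The annotation release and the strand setting of the counting are not given in the sources used here. Of 25210 gene identifiers, 24918 are in GENCODE M21, and 95.3% of these have a start within 1000 bases. Columns that could not be assigned numbered 0.

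Genes were kept with filterByExpr on the 4 groups. Counts were scaled by TMM and tested with a mean per group over all 12 libraries (edgeR 4.0.16, R 4.3.3, robust glmQLFit and two-sided glmQLFTest). Benjamini-Hochberg adjustment ran over 15316 genes, with calls below 0.05. CPM use TMM-scaled library sizes, and log2 CPM a prior count of 2. The fit was tested on simulated data.

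Replicate numbers pair the libraries: per the series' design text, rep1, rep2 and rep3 are 3 cultures from 3 animals, each given all 4 treatments. The titles also tag them med, min and max, with no meaning given. Deviations from group means correlated in all 18 pairs with the same number (from 0.177 to 0.840, median 0.505). In 36 pairs of other libraries from different groups the median was -0.212. The main fit has no block, so its SEs, p-values and calls leave this pairing out. The common spread between replicates in edgeR (biological coefficient of variation) was 0.305 without the block and 0.156 with it. The block was run as an alternative. Others were RLE or library-size scaling, no filter, DESeq2 1.42.0, 2-group fits, and each library or culture left out. Scaling within cultures was added after seeing the data. Replicate libraries differed by more than sampling noise. No molecular identifiers are described.

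The 40 genes and the lists were chosen with earlier results of these data known. Values in every library are given for 20 of them, 1 to 5 per role, and for the 2 largest and the 2 smallest changes at 3 µM. Of each other list, at most the 2 largest and 2 smallest changes are named, and of the regulators Foxm1, Mybl2 and Rbl2.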

Additional observations from a re-analysis of the deposited data

Results flagged for a closer look

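The step from 1.5 to 3 µM went in different directions in the 3 cultures. The median log2 difference of the 40 mitosis and cytokinesis genes was 0.70 in culture 1, 1.16 in culture 2 and -0.16 in culture 3. With 1 library for each culture and dose, this difference was not tested.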

How the results depend on the processing

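All 40 mitosis genes were called higher at 3 µM under each alternative except 2. Leaving out culture 1 or culture 2 gave 39, with Spc25 not called. At 1 µM the count was 0 throughout. The count at 1.5 µM was 39 or 40 under other scalings, filters and tools and ranged from 2 to 40 over fits without a library or culture. For 1.5 against 1 µM it ranged from 0 to 40 over such fits, and for 3 against 1.5 µM from 0 to 37. For 1.5 against 1 µM the 34 genes became 25 without the filter, 32 with RLE scaling and 35 with library-size scaling. They became 39 with DESeq2 and 39 with the 2 groups alone. Of all genes, 400, 550, 705, 1065 and 699 were called higher in these 5 fits, in that order, against 679 in the main fit. For 3 against 1.5 µM the 7 genes became 1 with library-size scaling, 1 without the filter and 1 with the 2 groups alone. They became 13 with DESeq2 and 15 with the replicate block. Of all genes, 1740 of 25210 were called higher without the filter and 1723 of 15316 with the 2 groups alone, against 2601 in the main fit. Over fits without a library or culture, 337 to 2598 of all genes were called higher at 1.5 µM. For 1.5 against 1 µM 0 to 1119 of all genes were, and for 3 against 1.5 µM 204 to 3296. The slope was called in 38 to 40 genes. The block moved no other count of the 40 by more than 1.5 times. Of all genes, it moved those called at 1 µM from 29 higher and 8 lower to 390 and 469 (335 and 150 with DESeq2), those lower at 1.5 µM from 1813 to 3727, those for 1.5 against 1 µM from 679 and 152 to 1737 and 1614 (1065 and 569 with DESeq2), and those lower for 3 against 1.5 µM from 1943 to 3364. Without TMM the median of all genes was -0.23 at 3 µM and -0.28 for 3 against 1.5 µM on the log2 scale, and the median of the 40 genes in the latter was 0.39. At 3 µM 3395 of all genes were then called higher and 5404 lower, against 4575 and 4239 with TMM, and for 3 against 1.5 µM 1050 and 3860, against 2601 and 1943. Why these counts moved was not tested.

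At 1 µM, where no adjusted p was below 0.05, the sign of small log2 changes depended on the setting. It reversed with the 2 groups alone for Aurka (-0.0032), Incenp (-0.0052) and Kif2c (-0.0081), and with library-size scaling for Ndc80 (0.030), Nuf2 (0.027) and Spc25 (0.061). With the replicate block it reversed for Spc25 (0.018) and Kif2c (-0.0012). Over fits without a library or culture the ranges were -0.068 to 0.19 for Cdk1, -0.017 to 0.19 for Ccnb1, -0.17 to 0.33 for Ccnb2, -0.13 to 0.19 for Aurka, -0.13 to 0.26 for Nek2 and -0.080 to 0.23 for Top2a. They were -0.066 to 0.088 for Incenp, -0.064 to 0.26 for Cenpa, -0.22 to 0.16 for Ndc80, -0.27 to 0.081 for Nuf2, -0.30 to 0.23 for Spc25, -0.11 to 0.43 for Pttg1 and -0.15 to 0.26 for Tpx2. For the others they were -0.090 to 0.18 for Kif2c, -0.15 to 0.35 for Prc1, -0.10 to 0.33 for Kif20a, -0.037 to 0.39 for Kif23, -0.040 to 0.31 for Ect2 and -0.23 to 0.054 for Anln. The 3 libraries per group limit the precision, and depth was not varied.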
